A study of Mus musculus with 32 samples.

Results

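The genes described here code for the proteins of the cytosolic ribosome, measured in mouse liver. They were taken from the deposited log2 table as every symbol that is Rpl or Rps followed by a digit, or Rplp0, Rplp1, Rplp2 or Rpsa, leaving out 24 pseudogene symbols with -ps and 8 S6 kinase genes (Rps6k). This gave 88 of 13432 genes, and all 88 passed the filter on low counts and were tested. Of these, 77 are ribosomal protein genes (43 of the large subunit, 31 of the small subunit and 3 of the stalk), 6 are paralogs or retrogenes (Rpl7l1, Rpl22l1, Rpl36al, Rps27l, Rps27rt and Rps23rg1), and 4 are annotated as pseudogenes (Rpl37rt, Rps3a2, Rps3a3 and Rps4l). The last, Rps19bp1, is named for a protein that binds RPS19 and is not itself a ribosomal protein. The 88 genes lie on 19 chromosomes, with 14 on chromosome 7, and the symbol rule does not take Fau, whose product is cut into a ribosomal protein and a ubiquitin-like part.

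The series holds 32 liver libraries, 1 per mouse, all from males of the inbred strain C3H/HeNCrl on a high fat diet. A short light (SL) photoperiod was given to 16 mice and a long light (LL) photoperiod to the other 16, and livers were taken at ZT0, ZT6, ZT12 and ZT18, where ZT is zeitgeber time in hours. The 8 groups were therefore SL ZT0, SL ZT6, SL ZT12 and SL ZT18, and LL ZT0, LL ZT6, LL ZT12 and LL ZT18, with 4 mice in each. No group had another diet or an intermediate photoperiod, and neither the daily hours of light nor what marks ZT0 is given in the sources used here. Reads assigned to genes ran from 9095615 to 27462776 per library, and all 7 hepatocyte markers examined, albumin (Alb) among them, were detected in every library. Values below are CPM, the reads of a gene as a share of the reads of its library, scaled by trimmed mean of M values to one common total, unless another scale is named.

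A ribosome is built in the nucleolus from ribosomal RNA, made by RNA polymerase I, and from proteins each encoded by a separate gene. Most of these proteins, though not all of those in the stalk, are needed in equal numbers. Most ribosomal protein mRNAs begin with a C followed by a run of pyrimidines, the terminal oligopyrimidine (TOP) start, through which the kinase complex mTORC1 and the TOP-binding protein LARP1 set how strongly these mRNAs are translated. In mouse liver, feeding and the clock are known to drive a daily wave in the translation of TOP mRNAs. Sequencing of polyadenylated RNA measures mRNA level and not translation, and in whole liver fewer cells of a type and less RNA per cell cannot be told apart.

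The TOP start is shown first because it is a sequence feature known from most ribosomal protein mRNAs. It did not define the set, which was chosen by symbol. RefSeq windows on GRCm38.p6 were matched by symbol for 65 of the 88 genes. Each line gives 20 bases before and 15 bases from the annotated start, 5′ to 3′, and capitals mark the C and the pyrimidines that follow it without a break, beginning at the start itself.
Rps6 (chr4:86857353-86857387, minus strand): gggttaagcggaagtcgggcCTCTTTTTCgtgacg
Rps18 (chr17:33955651-33955685, minus strand): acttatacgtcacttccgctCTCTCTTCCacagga
Rps27 (chr3:90213634-90213668, minus strand): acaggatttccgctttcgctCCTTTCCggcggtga
Rps10 (chr17:27635230-27635264, minus strand): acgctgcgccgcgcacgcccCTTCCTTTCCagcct
Rpl28 (chr7:4792945-4792979, plus strand): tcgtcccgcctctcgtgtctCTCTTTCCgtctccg
Rpl35 (chr2:39005117-39005151, minus strand): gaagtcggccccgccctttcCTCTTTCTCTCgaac
Rpl38 (chr11:114668560-114668594, plus strand): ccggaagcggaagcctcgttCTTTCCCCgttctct
Rplp2 (chr7:141447631-141447665, plus strand): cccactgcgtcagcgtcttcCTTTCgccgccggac
Rps19bp1 (chr15:80264292-80264326, minus strand): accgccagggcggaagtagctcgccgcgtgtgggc
Rps23rg1 (chr8:3567978-3568012, plus strand): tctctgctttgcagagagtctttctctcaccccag

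The pyrimidine run at the start is 9 bases long in Rps6 and Rps18, 11 in Rpl35 and 5 in Rplp2, while in Rps19bp1 and Rps23rg1, a binding protein and a retrogene, no run begins with a C exactly at the annotated start. The start of Rps23rg1 lies inside a run of pyrimidines that begins upstream of it. The ribosomal protein genes shown are chosen examples that all have a run at the start, which 13 of 57 ribosomal protein genes with a window have (22.8%). Lacking it is thus not particular to Rps19bp1 and Rps23rg1. A C with at least 4 pyrimidines after it stood exactly at an annotated start in 14 of the 65 genes (21.5%), against 3.01% of the 27025 genes in the promoter table. It began within 5 bases of a start in 31 genes (47.7%), against 21.2% of all genes, and a longer run of C and 7 pyrimidines lay between 30 bases before and 50 after a start in 49 genes (75.4%), against 25.99%. On either strand of the 300-base windows, CCGGAAG was found in 25 of the 65 genes (38.5%), against 9.93% of all genes, and AAGATGGC in 6 (9.23%), against 3.19%. These letters are a description of the windows, and a match does not show that a factor binds there.

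Many members have near-identical copies elsewhere in the genome, which limits how reads can be assigned. The first 84 coding bases (GRCm38, GENCODE transcripts) of Rps27, its retrogene Rps27rt and its paralog Rps27l show the range, with capitals for bases that differ from Rps27.
Rps27: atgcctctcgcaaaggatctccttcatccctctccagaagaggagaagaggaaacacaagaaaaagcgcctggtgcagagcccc
Rps27rt: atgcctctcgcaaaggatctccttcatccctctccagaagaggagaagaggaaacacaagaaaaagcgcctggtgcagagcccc
Rps27l: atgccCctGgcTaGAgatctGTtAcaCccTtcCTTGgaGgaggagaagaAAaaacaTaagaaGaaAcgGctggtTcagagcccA

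Rps27rt has no difference from Rps27 over all 252 coding bases, while Rps27l differs at 60 of them (76.2% identity). Of the 50-base words of the Rps27 transcript, 1.351% occur in no other annotated gene, against 77.6% for Rps27l. Rps27 was assigned 38531 reads over the 32 libraries and Rps27rt 515, so a small share of reads was placed on the copy. A similar pair is Rps3a1, an RNA-binding protein of the small subunit, and its pseudogene Rps3a3, which lies within Pde4d on the same strand. They differ at 9 of 792 coding bases (98.9% identity), and the pseudogene was assigned 22211 reads and the gene 22083. The sources used here do not say how reads that match several places were counted, so the members with copies are uncertain as levels. Their comparisons between groups rest on the assumption that assignment was the same in every library.

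Levels per length, as TPM (reads per length of the union of annotated exons, scaled to the same sum in every library), spanned 3.31 to 645 TPM among the 88 genes, with a median of 90.3 TPM. The median over all tested genes was 7.19 TPM, and 84 of the 88 genes lay above it. The 5 highest were Rplp1 (645 ± 87.5 TPM, SD, n = 32 libraries), an acidic protein of the stalk that recruits elongation factors, the large-subunit genes Rpl4 (497 ± 22.8 TPM), Rpl8 (363 ± 28.7 TPM) and Rpl36 (362 ± 99.0 TPM), and the small-subunit gene Rps15 (445 ± 56.0 TPM). The ranges of 1 SD between libraries of Rpl4 and Rps15 overlap, as do those of Rps15, Rpl8 and Rpl36, and the order of these means was not tested. The 5 lowest were Rps23rg1 (3.31 ± 1.23 TPM), Rps10 (3.66 ± 0.79 TPM), Rps27rt (6.97 ± 2.98 TPM), Rps4l (6.98 ± 3.31 TPM) and Rps3a2 (7.51 ± 1.25 TPM), of which Rps10 alone is a ribosomal protein gene with its own essential product.

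Most ribosomal proteins, those of the stalk apart, are needed in equal numbers, and their assigned mRNA levels were not equal. The median ribosomal protein gene stood at 98.7 TPM, and Rps10 lay below it by far more than the SD between libraries. Rps10, Rpl13a (11.7 ± 1.49 TPM) and Rpl24 (12.5 ± 2.66 TPM) are the 3 lowest of the 77 ribosomal protein genes. All 3 overlap, on the same strand and over at least 2840 bases, an annotated read-through gene that was assigned 0 reads in all 32 libraries, namely RPS10-NUDT3, Gm45713 and Gm28037. Rpl13 overlaps such a gene too (Gm20388, 2895 bases, 0 reads). The part of these overlaps in the low levels was not tested. Words of 50 bases shared with an overlapping gene on either strand also count as not unique. RPS10-NUDT3 holds 78.2% of those of Rps10, and Gm28037 69.4% of those of Rpl24. The share of unique 50-base words was related weakly to level: 23 ribosomal protein genes with at most 25% unique words had a median of 79.4 TPM, 48 genes between 25 and 75% a median of 109.6 TPM, and 6 genes above 75% a median of 159 TPM, with Spearman's rho 0.18 across the 77 genes, which share the same libraries and are not independent replicates.

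**Figure D1:**
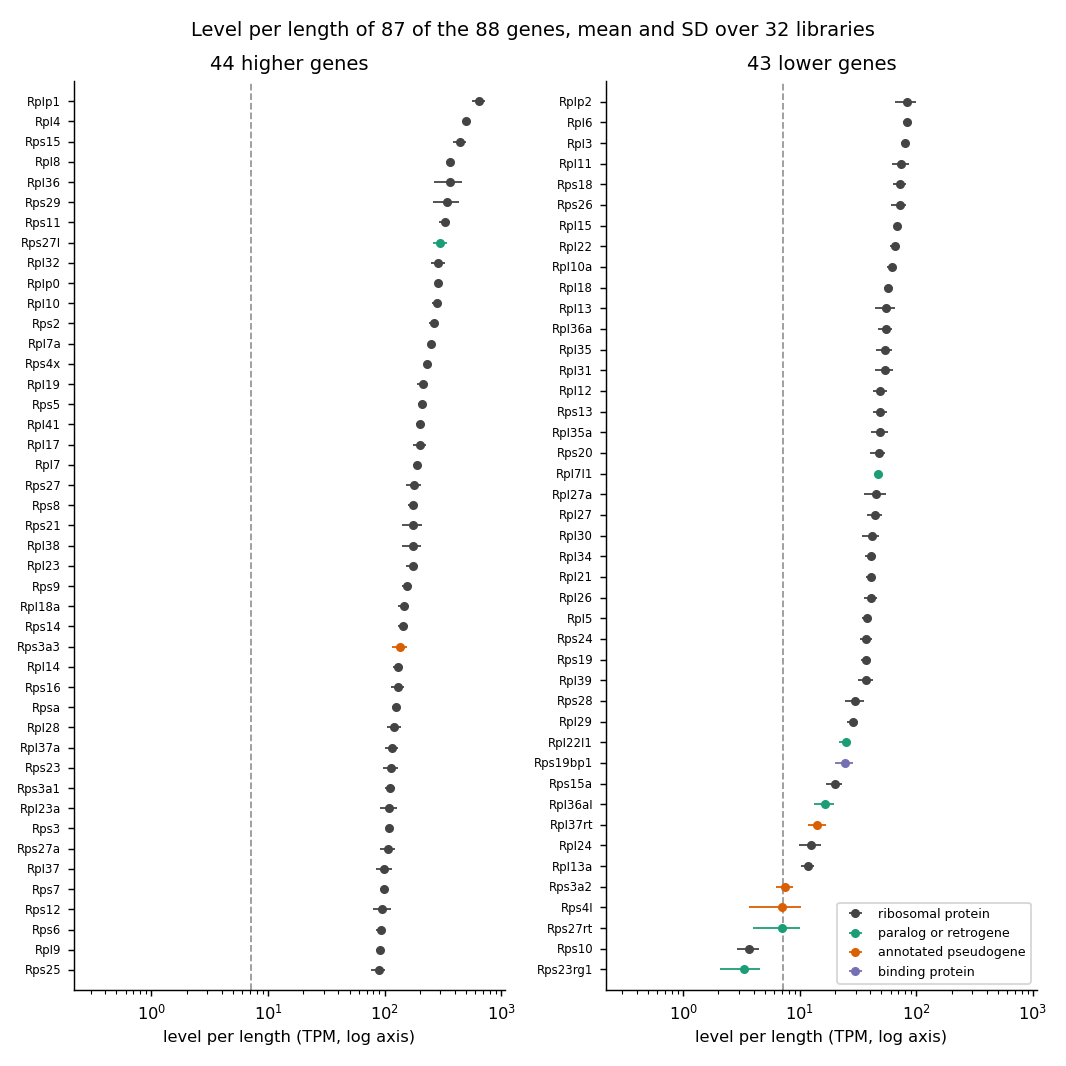
Level per length of 87 of the 88 genes in TPM on a log axis, mean over 32 libraries with SD as bars, coloured by kind, with the higher 44 in the left panel and a dashed line at the median of all tested genes (7.19 TPM). Rplp1 stands highest at 645 TPM, and Rps10, at 3.66 TPM, is the lowest of the ribosomal protein genes.

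The 88 genes together took 0.666 ± 0.027% of all assigned reads in SL libraries (SD, n = 16) and 0.710 ± 0.117% in LL libraries (SD, n = 16). Group medians were 0.659, 0.658, 0.654 and 0.695% in SL at ZT0, ZT6, ZT12 and ZT18, against 0.662, 0.699, 0.657 and 0.698% in LL. All SL libraries fell between 0.631 and 0.715%, and 15 LL libraries fell between 0.595 and 0.799%. The remaining library, LL ZT12 replicate 3, stood at 1.104%, against 0.682, 0.631 and 0.631% in replicates 1, 2 and 4 of its group. Without it the LL mean was 0.684 ± 0.054% (n = 15).

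**Figure D2:**
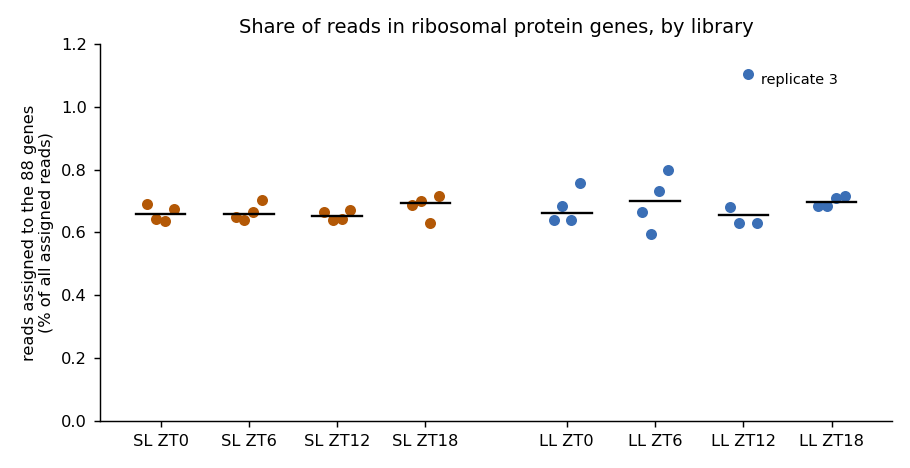
Percent of all assigned reads that fell in the 88 genes, 1 point per library, for the 4 SL groups on the left and the 4 LL groups on the right, with a line at each group median. LL ZT12 replicate 3 lies at 1.104%, and the other 31 libraries lie between 0.595 and 0.799%.

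LL ZT12 replicate 3 touches every result on ribosomal protein genes at ZT12. Its mean correlation of log2 CPM with its group mates was 0.969, against 0.981 to 0.989 for the other 31 libraries. In it, 84 of the 88 genes were above all 3 other LL ZT12 libraries, against 39.9% of all tested genes, and the median member exceeded the mean of those libraries by 0.89 on the log2 scale. The excess was largest for Rpl36 (1.62), Rplp2 (1.36) and Rps29 (1.34), and smallest for Rpl7l1 (-0.15), Rps27rt (-0.07) and Rps3a1 (0.10). Rpl7l1 codes for an assembly factor of the large subunit.

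The library differed by transcript length. Among genes that are not members, those under 500 bases had a median log2 difference of 0.31 from the other 3 libraries, those with a longest transcript of 500 to under 1000 bases a median of 0.58, and those of 6000 bases and over a median of -0.42. Members of 500 to under 1000 bases had a median of 0.95, and the 10 members of 2000 to under 3000 bases had a median of 0.78, against 0.10 for other genes of that length. Members thus exceeded other genes of their own length class in this library. Within LL ZT12, summed cholangiocyte markers (5 genes) were highest in this library (63.5 CPM, against 36.9, 42.0 and 38.1 CPM) and summed stellate cell markers (6 genes) were lowest (183 CPM, against 243, 219 and 273 CPM). Also lowest in it were sinusoidal endothelial markers (6 genes, 199.5 CPM, against 272, 243 and 291 CPM), erythroid markers (5 genes, 198 CPM, against 267, 239 and 225 CPM) and lymphocyte markers (10 genes, 13.9 CPM, against 14.9, 14.3 and 17 CPM), while Kupffer cell markers (10 genes) lay inside the group's range. Some of these sums rest mostly on 1 or 2 genes. Over all libraries Spp1 averaged 31.4 CPM of a cholangiocyte sum of 40.9 CPM, and Alas2 187 CPM of an erythroid sum of 232 CPM. Ptprc and Cd4 averaged 8.25 and 5.42 CPM of a lymphocyte sum of 15.7 CPM. The part of the length pattern and of these marker sums in the ZT12 results was not tested. Counts of called genes below are therefore given with all 32 libraries and without this one, and other values are from all 32 libraries unless stated.

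**Figure D3:**
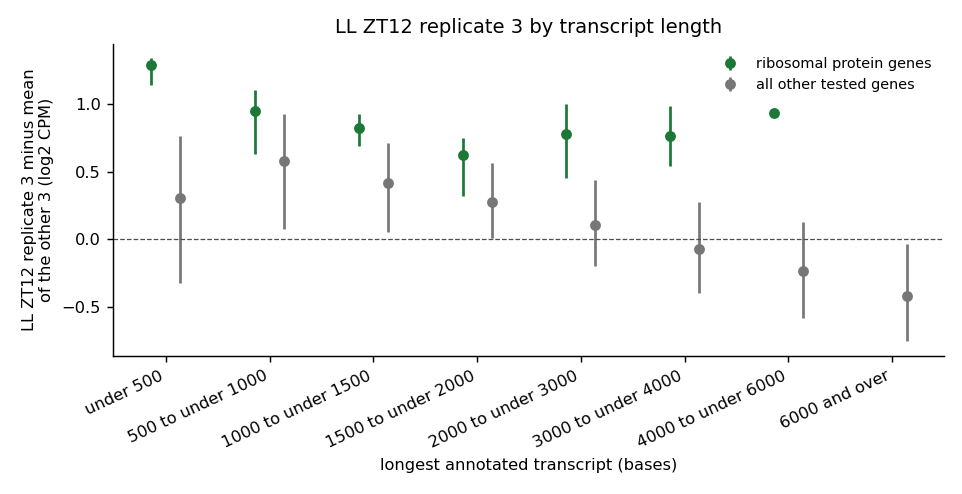
Log2 CPM of LL ZT12 replicate 3 minus the mean of the other 3 LL ZT12 libraries, by length of the longest annotated transcript in bases, as the median with the middle 50% of genes as bars, for ribosomal protein genes and for all other tested genes. Other genes run from 0.58 at 500 to under 1000 bases to -0.42 at 6000 bases and over, and ribosomal protein genes lie above them in each class that holds any.

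The first comparison asked which ribosomal protein genes varied over the day in SL. Of the 88 genes, 1 was called, Rps23rg1 (edgeR quasi-likelihood test, Benjamini-Hochberg adjusted p = 0.00764), against 19.1% of all 14456 tested genes. No gene of the 77 ribosomal protein genes was called, and 1 of them reached an unadjusted p under 0.05, against 30.6% of all tested genes. The log2 amplitude of a 24 h wave had a median of 0.05 over the 88 genes (range 0.01 to 0.38), against 0.15 over all tested genes. An amplitude cannot be negative and takes in noise between mice, and members stood higher in level (median 90.3 against 7.19 TPM). Medians of amplitude, here and in LL, are thus not compared like for like.

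In LL, 0 of the 88 genes were called for time of day by edgeR, against 18.3% of all tested genes, and 7 reached an unadjusted p under 0.05, against 31.7% of all. DESeq2 and limma-voom called 0 as well. The smallest p belonged to Rps25 (adjusted p = 0.110), a small-subunit protein needed by some viral internal ribosome entry sites in human cells, and Rpl23a (adjusted p = 0.134), the protein at the exit tunnel to which the signal recognition particle docks. The median log2 amplitude in LL was 0.12, against 0.16 over all tested genes. Without LL ZT12 replicate 3 it was 0.06 in LL, against 0.15 over all tested genes.

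With that library left out, 3 of the 88 genes were called in SL (Rps23rg1, Rpl13a and Rps19bp1), against 26.9% of all 14620 genes then tested. In LL, 1 gene was called (Rps2), against 21.2% of all. The SL libraries are the same in both fits, which differ in the shared estimate of spread, the scaling and the number of genes tested.

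Rps23rg1, a gene on chromosome 8 (GRCm38 chr8:3567990-3584939, plus strand, protein coding, listed in GENCODE as C330021F23Rik) that carries a retrotransposed copy of Rps23, had the smallest p. In SL it stood at 8.34, 5.32, 5.05 and 2.93 CPM at ZT0, at 2.94, 2.36, 1.82 and 2.44 CPM at ZT6, at 3.54, 3.66, 3.95 and 3.18 CPM at ZT12, and at 3.55, 3.43, 3.31 and 2.05 CPM at ZT18. In LL it stood at 3.37, 2.46, 3.63 and 3.52 CPM at ZT0, at 3.20, 2.53, 3.66 and 5.52 CPM at ZT6, at 3.54, 5.73, 5.10 and 3.22 CPM at ZT12, and at 1.97, 2.41, 2.07 and 4.02 CPM at ZT18. In SL the high group was ZT0 and the low one ZT6, with replicate 4 of ZT0 inside the range of the ZT6 group, while in LL the groups overlapped throughout.

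The interaction of photoperiod with ZT was called for Rps23rg1 (adjusted p = 0.0177). It was higher in SL than in LL at ZT0 by 0.78 ± 0.27 on the log2 scale (SE, edgeR adjusted p = 0.0602) and lower at ZT6 (-0.67 ± 0.27, adjusted p = 0.0991), neither of which passed the threshold of 0.05 with all libraries. Both calls rest on a single mouse, since leaving out SL ZT0 replicate 1 gave adjusted p = 0.0977 for time of day in SL and 0.0603 for the interaction. Only 65.1% of its 50-base words are unique, and 25.3% are shared with Rps23, counting either strand. The pseudogene Rps23-ps2 overlaps Rps23rg1 over 432 bases on the opposite strand. At 1861 reads in all, the values of Rps23rg1 rest on few counts per library.

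The second comparison asked whether the daily course differed between photoperiods. The interaction was called by edgeR in 1 of the 88 genes, Rps23rg1, against 32.7% of all tested genes, and 3 genes reached an unadjusted p under 0.05, against 42.5% of all. Next in order was Rpl23a (adjusted p = 0.0698). Without LL ZT12 replicate 3, 4 of the 88 genes were called (Rps19bp1, Rps27l, Rps23rg1 and Rps2, with adjusted p = 0.00994, 0.0208, 0.0209 and 0.0342), against 38.7% of all. A retrogene, a paralog and a binding protein thus made up 3 of the 4, and Rps2 was the sole ribosomal protein gene.

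Rps19bp1, which codes for a binding partner of RPS19, stood in SL at 9.51, 9.20, 8.72 and 8.97 CPM at ZT0, 8.90, 9.22, 8.73 and 9.49 CPM at ZT6, 10.7, 9.51, 10.9 and 12.8 CPM at ZT12, and 11.8, 12.5, 11.3 and 12.5 CPM at ZT18. In LL it stood at 8.65, 10.1, 6.60 and 11.9 CPM at ZT0, 9.98, 9.86, 11.3 and 12.5 CPM at ZT6, 9.05, 7.71, 16.7 and 8.14 CPM at ZT12, and 9.85, 9.15, 8.29 and 11.7 CPM at ZT18. In SL all 4 mice at ZT18 were above all mice at ZT0 and ZT6. At ZT6 all SL mice were below all LL mice, and at ZT12 all SL mice were above 3 of the 4 LL mice, the fourth being replicate 3.

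Its difference at ZT12 turned on that library. SL minus LL was 0.41 ± 0.12 on the log2 scale without it (adjusted p = 0.0423), and with all libraries the gene was not called at ZT12.

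Rps27l, a paralog of Rps27 known as a target of p53 in human cells, stood in SL at 84.9, 81.9, 87.1 and 91.3 CPM at ZT0, 105, 92.7, 103 and 103 CPM at ZT6, 103, 84.3, 86.8 and 99.5 CPM at ZT12, and 90.6, 92.4, 88.6 and 100.3 CPM at ZT18. In LL it stood at 93.4, 81.3, 89.9 and 106 CPM at ZT0, 84.5, 89.3, 91.0 and 86.3 CPM at ZT6, 89.3, 87.1, 182 and 76.8 CPM at ZT12, and 86.7, 106, 104 and 107 CPM at ZT18. At ZT6 all 4 SL mice were above all 4 LL mice. That difference was 0.22 ± 0.08 on the log2 scale (SE, edgeR adjusted p = 0.0428) with LL ZT12 replicate 3 left out, and it was not called with all libraries.

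Rps2, which codes for a protein of the small subunit near the mRNA entry tunnel, stood in SL at 178, 169, 185 and 179 CPM at ZT0, 181, 188, 192 and 192 CPM at ZT6, 183, 194, 193 and 207 CPM at ZT12, and 182, 176, 187 and 208 CPM at ZT18. In LL it stood at 190.4, 167, 161 and 199 CPM at ZT0, 174, 169, 171 and 189 CPM at ZT6, 180.5, 167, 274 and 130.4 CPM at ZT12, and 199, 204, 188 and 216 CPM at ZT18. Without LL ZT12 replicate 3, time of day in LL was called (edgeR adjusted p = 0.0208), with ZT18 the high group. The remaining ZT12 mice, at 180.5, 167 and 130.4 CPM, overlapped those at ZT0 and ZT6. SL minus LL at ZT12 was then 0.29 ± 0.09 (adjusted p = 0.0257), and it was not called with all libraries. The snoRNA host gene Snhg9 overlaps 435 bases of Rps2 on the opposite strand and was assigned 37 reads in all. Of the 50-base words of Rps2, 28.7% are unique, and 71 other genes share some.

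**Figure D4:**
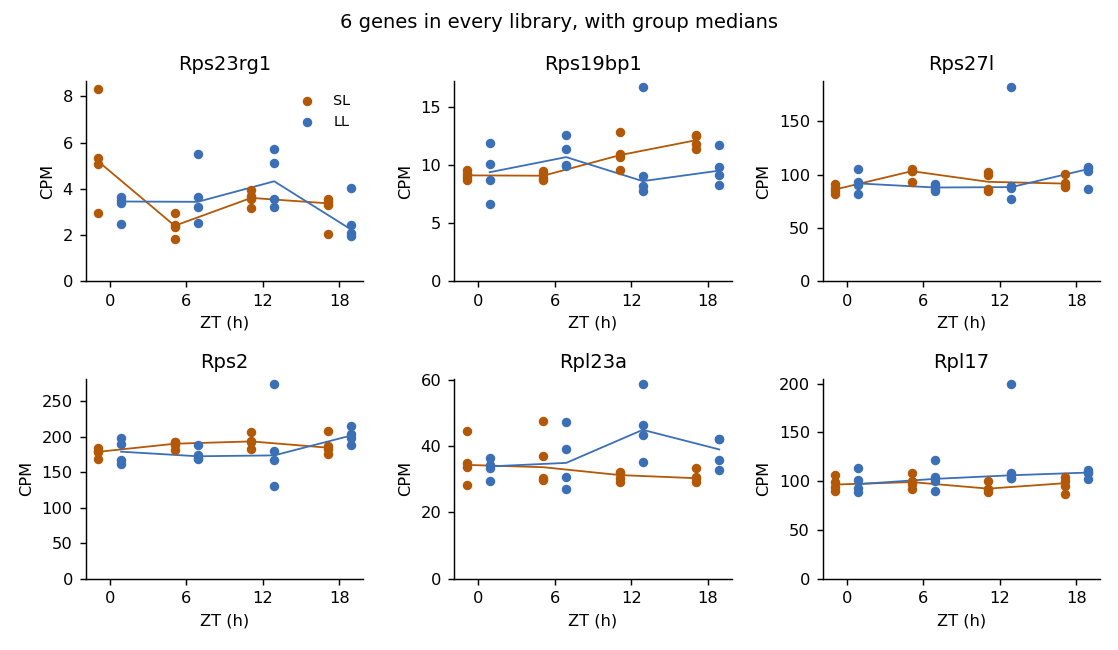
CPM of 6 genes in every library against ZT in hours, SL points to the left of LL points at each ZT, with lines through the group medians. Rps23rg1 reached 8.34 CPM in SL at ZT0, and LL ZT12 replicate 3 is the single high LL point at ZT12 for Rps19bp1 (16.7), Rps27l (182), Rps2 (274), Rpl23a (58.7) and Rpl17 (199 CPM).

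The third comparison set SL against LL at each ZT. At ZT0, 0 of the 88 genes were called by edgeR, against 11% of all tested genes, and 1 reached an unadjusted p under 0.05, against 23.6% of all. DESeq2 and limma-voom also called 0. No member had all SL libraries above all LL libraries (8.94% of tested genes did) or below them (7.76%). The median of the 88 log2 fold changes was -0.05. For 69 of the 88 genes (78.4%) the 95% interval of the difference lay within 0.5 on the log2 scale either way, against 47.5% of all tested genes. Rps29, a zinc finger protein of the small subunit, had the next smallest p after Rps23rg1 (-0.45 ± 0.23, adjusted p = 0.238), with means of 76.0 ± 11.8 CPM in SL and 103.5 ± 16.5 CPM in LL. Without LL ZT12 replicate 3, Rps23rg1 alone was called at ZT0 (0.79 ± 0.27, adjusted p = 0.0486), against 15.4% of all genes.

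At ZT6, 0 of the 88 genes were called by edgeR, against 15.3% of all tested genes, and 2 reached an unadjusted p under 0.05 (Rps23rg1 and Rps3a1), against 27.5% of all. DESeq2 and limma-voom also called 0. The median log2 fold change was -0.04, and for 72 genes (81.8%) the interval lay within 0.5 either way, against 47.5% of all tested genes. Rps3a1 differed by -0.20 ± 0.09 (adjusted p = 0.149), at 38.7, 40.3, 39.6 and 41.9 CPM in SL and 45.0, 38.3, 46.7 and 53.8 CPM in LL, and the groups overlapped. All SL libraries were above all LL libraries in 1 of the 88 genes (Rps27l, 1.14%), against 9.77% of all tested genes, and below them in 1 (Rps19bp1), against 10.6%. Rps27l alone was called without LL ZT12 replicate 3, against 20.9% of all genes.

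At ZT12, 5 of the 88 genes were called and all 5 were lower in SL, against 12.4% of all tested genes called in either direction and 6.4% called lower in SL. Among them were Rpl23a (-0.57 ± 0.16, edgeR adjusted p = 0.0154), Rps15a (-0.50 ± 0.14, adjusted p = 0.0207), Rpl17 (-0.46 ± 0.14, adjusted p = 0.0228) and Rpl32 (-0.43 ± 0.14, adjusted p = 0.034). The median over the 88 genes was -0.25 on the log2 scale, against -0.01 over all tested genes, and 81 of the 88 were lower in SL. Unadjusted p was under 0.05 in 40 genes (45.5%), against 26.3% of all tested genes.

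These values at ZT12 rested on LL ZT12 replicate 3. Without it the median log2 fold change of the 88 genes was 0.02, 40 of the 88 were lower in SL, and 0 of the 5 genes were called. The interval then lay within 0.5 either way for 75 genes (85.2%), against 50.3% of all. The genes then called were Rps2 and Rps19bp1, both higher in SL, against 11.5% of all genes tested in either direction and 5.6% higher in SL. Leaving out 1 of the other ZT12 libraries in turn gave between 0 and 23 called members. It gave 0 without SL ZT12 replicate 3, 1 without SL ZT12 replicate 4 and 3 without SL ZT12 replicate 2. Leaving out LL ZT12 replicate 1, 2 or 4 gave 13, 18 and 23. Shares over all tested genes for these fits are not given here.

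Rpl23a kept most of its difference. It stood at 32.0, 32.1, 29 and 30.5 CPM in SL at ZT12, against 43.4, 35.2, 58.7 and 46.3 CPM in LL. All SL values were below all LL values, with and without replicate 3, and SL minus LL was -0.43 ± 0.16 without it (adjusted p = 0.0807), which did not pass the threshold. Rpl23a overlaps Tlcd1 on the opposite strand over 978 bases, and Tlcd1 was assigned 27149 reads. Whether counting used strand is not given in the sources used here, so reads of the pair cannot be told apart with certainty.

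Rpl17, a large-subunit protein at the mouth of the exit tunnel, stood at 99.9, 92.4, 88.6 and 92.3 CPM in SL at ZT12, against 108, 104, 199 and 103 CPM in LL. The groups did not overlap, and 3 LL mice were just above the highest SL mouse. Its difference was -0.17 without replicate 3 (adjusted p = 0.226). Rps15a, a small-subunit protein, stood at 48.5, 44.3, 38.6 and 39.4 CPM in SL, against 52.6, 45.1, 92.6 and 50.6 CPM in LL, with an overlap between the groups, and its difference without replicate 3 was -0.21 (adjusted p = 0.199).

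Rpl32, of the large subunit, stood at 107.5, 92.5, 98.1 and 94.2 CPM in SL at ZT12, against 111, 109, 205 and 102 CPM in LL. The groups overlapped, and replicate 3 was the highest LL mouse. Without it the difference was -0.13 (adjusted p = 0.348).

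Among all 88 genes at ZT12, SL libraries were all below all LL libraries in 4 (Rpl10, Rpl15, Rpl17 and Rpl23a, 4.55%), against 6.67% of tested genes, and all above in 1 (Rpl7l1), against 7.75%. Without replicate 3 the same 4 stayed below, against 12.1% of tested genes, and 8 genes lay above (Rpl13a, Rpl7l1, Rplp1, Rplp2, Rps16, Rps19bp1, Rps2 and Rps20, 9.09%), against 11.8%. None of these shares exceeds that of all tested genes.

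At ZT18, 0 of the 88 genes were called by edgeR, against 9.21% of all tested genes, and 2 reached an unadjusted p under 0.05, against 21.6% of all. DESeq2 and limma-voom also called 0. The median log2 fold change was -0.09 and 76 of the 88 genes were lower in SL, while the median of all tested genes was 0.01. With library totals in place of the trimmed mean of M values, the median was -0.02 over the 88 genes and 0.08 over all tested genes. Without LL ZT12 replicate 3, which is not a ZT18 library and enters through the shared spread and the scaling, 17 of the 88 genes reached an unadjusted p under 0.05 (19.3%), against 26.3% of all genes. Members rise and fall together from library to library, so 76 genes are not 76 independent observations. Rps3a1 had the smallest p (-0.20 ± 0.09, adjusted p = 0.173), at 42.2, 43.7, 35.4 and 36.9 CPM in SL and 43.8, 46.4, 48.5 and 43.7 CPM in LL, and the highest SL value (43.66 CPM) lay just under the lowest LL value (43.75 CPM).

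Rps4x, the X-linked RPS4 gene, stood at 144, 141, 124 and 142 CPM in SL at ZT18, against 139, 163, 159 and 164 CPM in LL. LL replicate 1 lay within the SL range. The difference was -0.18 ± 0.08 with all libraries (adjusted p = 0.187) and -0.19 ± 0.06 without LL ZT12 replicate 3 (adjusted p = 0.0419), when it was the sole member called, against 13.5% of all genes. All SL libraries were below all LL libraries in 6 of the 88 genes (6.82%, among them Rpl32, Rpl36a, Rps3a1, Rps7 and Rps15a), against 7.94% of all tested genes, and above them in 0, against 9.55%. Summed skeletal muscle markers (7 genes) were between 0.662 and 33.8 CPM in SL at ZT18 and between 11 and 212 CPM in LL at ZT18, and their part in this shift was not tested.

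Averaged over the 4 ZTs, 0 of the 88 genes were called by edgeR, as were 0% of all tested genes, and 21 of the 88 (23.9%) reached an unadjusted p under 0.05, against 5.05% of all. DESeq2 and limma-voom also called 0 members. The median was -0.12 on the log2 scale with all libraries and -0.04 without LL ZT12 replicate 3, when 0 genes were called, against 0.0205% of all, and 15 reached an unadjusted p under 0.05, against 6.14% of all. The smallest p belonged to Rps3a1 (-0.17 ± 0.05, adjusted p = 0.725) and Rps15a (-0.25 ± 0.07, adjusted p = 0.865). For 85 of the 88 genes (96.6%) the 95% interval of the mean difference lay within 0.5 on the log2 scale either way, against 86.7% of all. Mean photoperiod differences above that size are outside the intervals for these 85 genes.

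**Figure D5:**
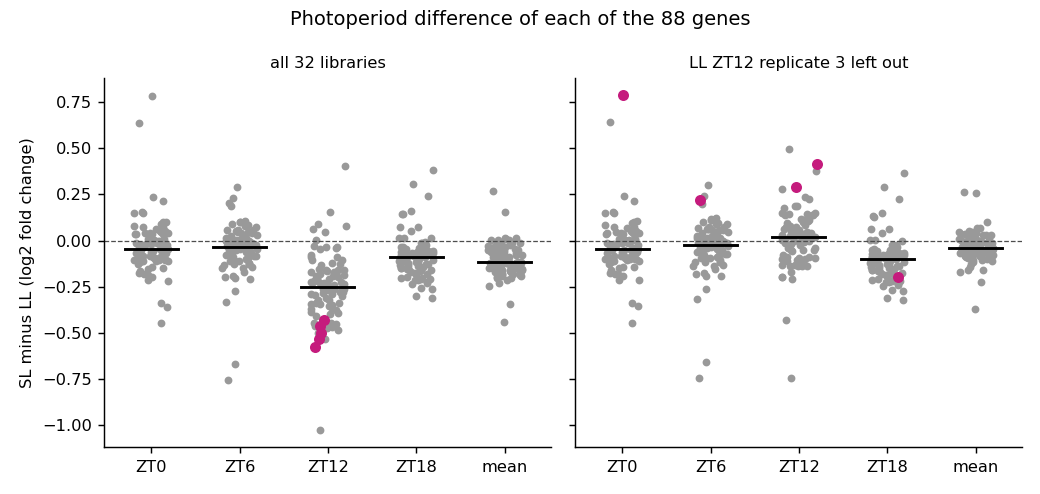
SL minus LL log2 fold change of each of the 88 genes at the 4 ZTs and for their mean, with all 32 libraries on the left and without LL ZT12 replicate 3 on the right. Black lines are medians, and large points passed the edgeR test. At ZT12 the median was -0.25 with all libraries and 0.02 without that library.

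Setting SL against LL sampled 12 h later on the ZT scale (SL ZT0 beside LL ZT12, and so on round the cycle) left 0 of the 88 genes with an edgeR call for the interaction, against 0.519% of all tested genes (0 without LL ZT12 replicate 3 too, against 1.03%), and 0 at an unadjusted p under 0.05, against 9.84% of all. The 12 h offset was chosen with earlier results of these data known, so its low share over all genes is no independent result. With LL taken 6 h or 18 h later, 1 gene was called in each case, against 9.34% and 26.4% of all tested genes. With LL ZT12 replicate 3 left out, 1 gene was called with LL 6 h later, against 12% of all, and 6 with LL 18 h later (Rpl13a, Rps2, Rps26, Rps19bp1, Rps23rg1 and Rps27l), against 32.6% of all.

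The stalk genes and the members with known signalling roles did not pass the test in any comparison, with or without LL ZT12 replicate 3. Rplp0, the base of the stalk and a common reference gene in PCR, had group means between 179.8 and 186 CPM in SL and between 177 and 193 CPM in LL, and an SD within groups of 0.10 on the log2 scale. Its differences between SL and LL ran from -0.05 to 0.04 (edgeR adjusted p between 0.721 and 0.994). Rplp1 had group means of 119 to 127 CPM in SL and 119 to 135 CPM in LL, and Rplp2 59.3 to 66.1 CPM in SL and 63.0 to 75.5 CPM in LL. In both, the highest group mean was LL ZT12, which rested on replicate 3 (224 CPM for Rplp1 and 139 CPM for Rplp2). Its other 3 mice averaged 105 and 54.3 CPM, the lowest of the 8 groups for both genes. For Rplp0 those 3 mice averaged 174 CPM.

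Rpsa, the laminin receptor and a small-subunit protein, had group means of 147 to 153 CPM in SL and 146 to 170.5 CPM in LL. Rps6, the protein phosphorylated by S6 kinase, had 54.9 to 56.2 CPM in SL and 54.8 to 61.4 CPM in LL. Rpl5 and Rpl11 form the complex that binds MDM2 when ribosome assembly fails. Rpl5 had 51.5 to 56.4 CPM in SL and 58.6 to 59.3 CPM in LL, and Rpl11 71.1 to 75.3 CPM in SL and 74.5 to 92.6 CPM in LL. For Rpsa, Rps6 and Rpl11 the highest mean was LL ZT12, at 149, 56.7 and 70.5 CPM without replicate 3. Over the stalk genes and these 4, the smallest edgeR adjusted p was 0.183 with all libraries, for Rpl11 at ZT12, and 0.117 without LL ZT12 replicate 3, for Rplp1 at ZT12.

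Spread between mice of a group differed among members. Rps27rt, Rps4l and Rps23rg1, all below 4 CPM on average, varied most, with SDs within groups of 0.67, 0.64 and 0.39 on the log2 scale. Rpl7l1, Rpl4 and Rpl15 varied least, with SDs of 0.07, 0.09 and 0.10. The median over the 88 genes was 0.21, and 0.14 without LL ZT12 replicate 3. Rpl4, with one of the smallest SDs, had group means of 372 to 387 CPM in SL and 361 to 409 CPM in LL.

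The other copies and paralogs were not called in any comparison, with all 32 libraries or without LL ZT12 replicate 3. Rps4l was called at ZT12 with no filter and without SL ZT12 replicate 2, and Rps3a3 was called at ZT12 without LL ZT12 replicate 4. Rpl22l1, the paralog of Rpl22, had group means of 17.1 to 20.5 CPM in SL and 18.3 to 20.7 CPM in LL. Rpl36al had 7.37 to 9.13 CPM in SL and 7.87 to 10.7 CPM in LL, and Rpl37rt 3.74 to 4.46 CPM in SL and 3.64 to 4.61 CPM in LL. Rps3a2 stayed between 2.23 and 2.38 CPM in SL and between 2.23 and 2.39 CPM in LL. Rps4l had the widest differences, at -1.03 ± 0.41 on the log2 scale at ZT12 (edgeR adjusted p = 0.0967), with means of 2.13 ± 1.09 CPM in SL and 4.35 ± 1.72 CPM in LL. It lies within Tmtc1 on the opposite strand.

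Rpl13a, a large-subunit protein that in human cells is also released to silence inflammatory mRNAs, stood in SL at 7.16, 8.59, 8.72 and 7.08 CPM at ZT0, 8.25, 7.56, 9.25 and 11.3 CPM at ZT6, 9.67, 9.59, 9.84 and 10.1 CPM at ZT12, and 11.3, 9.36, 10.8 and 11.1 CPM at ZT18. All SL mice at ZT12 and ZT18 were above all SL mice at ZT0. Time of day in SL had adjusted p = 0.118 with all libraries and 0.0172 without LL ZT12 replicate 3. In LL its values at ZT0, ZT6 and ZT18 lay between 8.57 and 12.0 CPM, and LL ZT12 replicate 3 was at 14.2 CPM, against 8.41 to 8.75 CPM for its group mates.

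Members shared their variation between mice. Over the 32 libraries, deviations from group means of the 77 ribosomal protein genes had a median pairwise Pearson r of 0.80, and 0.61 over 31 libraries without LL ZT12 replicate 3. Other tested genes had a median r of -0.01 with the ribosomal protein mean. These are descriptions over libraries that share depth and preparation, and the ribosomal protein mean also followed the difference between short and long genes in a library (r = 0.85 with 32 libraries and 0.55 with 31). The genes outside the set most alike with 31 libraries were Gm15772 (0.85), Rack1 (0.85), the small-subunit scaffold with a TOP start, and Sod1 (0.81). Gm15772 holds 60.6% of the 50-base words of the member Rpl26. Rpl24 was the least alike member, at 0.51 with 32 libraries and -0.00 with 31 (-0.0022).

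Gene lists of 4 kinds around the ribosome were set beside the members. Of 36 ribosome biogenesis factors, 6 were called for time of day in SL, 5 in LL and 8 for the interaction, against 19.1, 18.3 and 32.7% of all tested genes. The counts were 9, 5 and 9 without LL ZT12 replicate 3, against 26.9, 21.2 and 38.7% of all, and the same shares stand behind the other 3 lists. Ncl, the nucleolar protein nucleolin, had means of 168, 162, 140 and 137 CPM in SL at ZT0, ZT6, ZT12 and ZT18, against 148, 157, 180 and 160 CPM in LL. The course differed between photoperiods (interaction, edgeR adjusted p = 9.35e-06, and 4.42e-07 without LL ZT12 replicate 3). Ncl was higher in SL at ZT0 (0.18 ± 0.06, adjusted p = 0.0345) and lower in SL at ZT12 (-0.36 ± 0.06, adjusted p = 4.66e-05) and ZT18 (-0.22 ± 0.06, adjusted p = 0.00998).

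Nolc1, a nucleolar chaperone, and Nop2, an rRNA methyltransferase, were higher in SL at ZT6 (0.60 ± 0.14 and 0.42 ± 0.13 on the log2 scale, with edgeR adjusted p = 0.00229 and 0.021). Mybbp1a and Rrp9 were higher in SL at ZT0 (0.28 ± 0.06 and 0.73 ± 0.20, with adjusted p = 0.00352 and 0.0154). The median log2 fold change of the 36 was 0.06, 0.04, -0.10 and -0.08 at ZT0, ZT6, ZT12 and ZT18.

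Of 14 genes of RNA polymerase I and rDNA transcription, 2 were called for time of day in SL, 3 in LL and 7 for the interaction, against 19.1, 18.3 and 32.7% of all tested genes, and 4, 3 and 8 without LL ZT12 replicate 3. Polr1a, the largest subunit of the polymerase, was higher in SL at ZT6 (0.43 ± 0.10, edgeR adjusted p = 0.00202) and lower at ZT18 (-0.32 ± 0.10, adjusted p = 0.03). Taf1c, of the promoter factor SL1, was higher in SL at ZT6 (0.50 ± 0.16, adjusted p = 0.0366). Taf1a and Taf1d were lower in SL at ZT12 (-0.49 and -0.53), and neither was called without LL ZT12 replicate 3.

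Of 20 translation factors and other mRNAs with a TOP start, 1 was called for time of day in SL, 0 in LL and 1 for the interaction. The shares over all tested genes were 19.1, 18.3 and 32.7%. Leaving out LL ZT12 replicate 3 gave 1, 1 (Rack1) and 2 (Nap1l1 and Tpt1). With all libraries, 2 of the 20 reached an unadjusted p under 0.05 for time of day in LL, against 31.7% of all. The gene called with all libraries was Nap1l1, a histone chaperone, which was lower in SL at ZT0 (-0.32 ± 0.08, edgeR adjusted p = 0.00713), and averaged 29 ± 2.17 CPM in SL, against 36.4 ± 4.36 CPM in LL (SD, n = 4 each). Naca and Hnrnpa1 were lower in SL at ZT12 (-0.36 and -0.30), and neither was called without LL ZT12 replicate 3. Fau, a ribosomal protein gene that the symbol rule misses, was not called for time of day or the interaction.

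Of 22 genes of mTORC1 signalling and TOP regulation, 2 were called for time of day in SL, 2 in LL and 5 for the interaction, against 19.1, 18.3 and 32.7% of all tested genes. These became 7, 6 and 9 without LL ZT12 replicate 3, with Larp1, Larp4, Rragc, Cnbp and Deptor added in SL and Tsc2, Rragc, Cnbp and Deptor added in LL. Ddit4 (REDD1), an inhibitor of mTORC1, had means of 6.07, 16.4, 15.6 and 10.5 CPM in SL at ZT0, ZT6, ZT12 and ZT18, against 16.3, 8.96, 8.04 and 14.7 CPM in LL (interaction, edgeR adjusted p = 1.95e-06). It was lower in SL at ZT0 (-1.42 ± 0.25, edgeR adjusted p = 0.000163) and higher at ZT6 and ZT12 (0.87 ± 0.23 and 0.96 ± 0.23). Larp1, the TOP-binding regulator, was higher in SL at ZT12 (0.35 ± 0.10, adjusted p = 0.0131, and 0.21 without LL ZT12 replicate 3, adjusted p = 0.0136). Myc, a transcription factor for ribosome genes, was lower in SL at ZT18 (-2.30 ± 0.53, adjusted p = 0.00399), and averaged 1.81 ± 0.55 CPM in SL, against 8.90 ± 9.77 CPM in LL, where the SD exceeded the mean.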

How the data were processed

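Liver RNA of 32 mice was sequenced from a stranded poly-A library kit, per the labels' protocols. The submitters' processing notes name the genome build GRCm38 (mm10) and, among the software, featureCounts 1.6.2, STAR 2.7.2b and bcl2fastq 2.20.0. Not given in the sources used here: strand setting, annotation and treatment of multi-matching reads. What the authors deposited are raw read counts for 55471 genes and a table of log2 values for 13432 genes, used here to choose members and as an alternative input.

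Counts were tested with edgeR 4.0.16 in R 4.3.3 (trimmed mean of M values, filterByExpr by group, quasi-likelihood F-test, 1 fit with 8 group means, 14456 genes). P-values were adjusted by Benjamini-Hochberg over the whole table and called below 0.05. Contrasts were time of day within each photoperiod, the photoperiod by ZT interaction, and SL minus LL for every ZT and averaged. Sampling every 6 h gives a 24 h wave from ZT0 minus ZT12 and ZT6 minus ZT18. Log2 CPM used a prior count of 2. TPM used GENCODE M21 exon unions, and 50-base words were compared across GENCODE transcripts on both strands, overlapping genes included. Promoter windows are from RefSeq, and 23 members with none were only named or counted.

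The members, the gene lists and the 12 h offset of LL were chosen with earlier results of these data known. Named genes were those called, the 2 smallest p per comparison, paralogs and non-ribosomal members, the 5 highest and lowest per length, the 3 largest and smallest SDs, the stalk, Rpsa, Rps6, Rpl5 and Rpl11, and, per list and comparison with a call, the 2 smallest p, of which some are given as counts only. Of the 88 members, 1 is counted but not reported by name here. In all 48 pairs of libraries within a group, counts differed by more than sampling noise (chi-square per degree of freedom 5.79 to 137). Total counts per library were 9095615 to 27462776, and their number limits precision for low genes. On simulated counts of 14257 genes, SL minus LL at ZT6 recovered 51 of 100 genes changed by 0.5 on the log2 scale and 100 of 100 changed by 1, with 6 unchanged genes called. Of 100 genes changed by 0.5, time of day in SL recovered 74 and the interaction 22. The changes were set in SL ZT6 alone and in genes above a floor on CPM, with spread taken from the trend. Recovery for low members is therefore not covered. Alternatives were other scalings and filters, DESeq2 1.42.0, limma 3.58.1 with voom, limma on the deposited log2 values, fits on the compared groups only, the replicate number as a block, each library left out in turn and, added after seeing the data, voom with sample weights.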

Additional observations from a re-analysis of the deposited data

Results flagged for a closer look

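In groups of 4, a value was picked out when its gap to the nearest other sample, over the group's range, exceeded Dixon's 95% limit. In 88 groups tested, a number that is not the count of members, this happened 11 times. Chance alone picks about 5% of independent groups. The groups tested did not cover every member. Rpl11, called in no comparison, stood at 158.9 CPM in LL ZT12 replicate 3 and is not among those picked out. Its group mates stood at 73.4, 71.5 and 66.5 CPM. That the genes picked out were all called in some comparison, with or without LL ZT12 replicate 3, is therefore no result. These genes also share libraries and vary together, so that 5% is no yardstick for these 11. LL ZT12 replicate 3 accounted for 7, all high: the share of reads in members (1.104%), Rpl32 (205.4 CPM), Rpl17 (199.4 CPM), Rps27l (182.5 CPM), Rps15a (92.59 CPM), Rps19bp1 (16.7 CPM) and Rpl13a (14.17 CPM). SL ZT18 replicate 3 was low for Rpl32 (87.76 CPM) and Rps4x (123.7 CPM), SL ZT18 replicate 4 was low for Rps23rg1 (2.049 CPM), and LL ZT18 replicate 1 was low for Rps27l (86.71 CPM).

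The course of Rps23rg1 over the day differed between SL and LL by the interaction test itself (edgeR adjusted p = 0.01771, range 0.00399 to 0.0603 with each library left out in turn).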

How the results depend on the processing

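Counts of called members by edgeR under the alternative settings mostly stayed within 1.5 times the values reported. Brackets after an alternative give the genes called out of all tested. For time of day in SL (1 called), the fit on those groups only gave 2 (3508 of 13921) and voom with sample weights 3 (3762 of 14456). For time of day in LL (0 called), voom with sample weights gave 2 (3280 of 14456). For the interaction (1 called), no filter gave 2 (4060 of 32791), DESeq2 2 (4897 of 14456) and voom with sample weights 3 (5756 of 14456). At ZT0 (0 called), no filter gave 1 (1283 of 32791) and the groups-only fit 1 (1488 of 13253). At ZT6 (0 called) the groups-only fit gave 1 (2146 of 13852). At ZT12 (5 called), no filter gave 13 (1488 of 32791) and DESeq2 10 (1916 of 14456). There limma-voom gave 3 (1741 of 14456), limma on the authors' log2 values 3 (1766 of 13432) and the groups-only fit 0 (723 of 13440). Voom with sample weights gave 3 (2338 of 14456), of which 1 was lower in SL (Rpl23a) and 2 were higher (Rps2 and Rps19bp1). Its median was -0.01 over the members in place of -0.25. At ZT18 (0 called), voom with sample weights gave 1 (2095 of 14456). The interaction with LL 12 h later (0 called) gave 1 at 6 h and 1 at 18 h. With longest transcripts in place of exon unions the median level of ribosomal protein genes was 129 TPM. The cause of these changes was not tested. Sample weights gave LL ZT12 replicate 3 a weight of 0.0765.

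With each library left out in turn, called members ranged from 0 to 3 for time of day in SL, 0 to 2 in LL and 0 to 4 for the interaction. They ranged from 0 to 1 at ZT0, ZT6 and ZT18, and from 0 to 23 at ZT12. For the mean of 4 ZTs and for LL 12 h later they were 0 to 0. Shares over all tested genes are not given for these ranges. The mean share of reads ranged from 0.663 to 0.668% in SL and from 0.684 to 0.718% in LL. Rps19bp1 at ZT12 (0.08 with all libraries) reversed to -0.0065 without SL ZT12 replicate 4, -0.037 without LL ZT12 replicate 2 and -0.032 without LL ZT12 replicate 4, and was larger in the same direction (0.41) without LL ZT12 replicate 3. Rps2 at ZT12 (0.05) reversed to -0.0061 without LL ZT12 replicate 2 and -0.094 without LL ZT12 replicate 4, and was 0.29 without LL ZT12 replicate 3. With the replicate block, the counts were 1, 0, 1, 0, 0, 5, 0 and 0 in the order of the comparisons. The labels do not say that replicate numbers pair mice, and 17 of 112 same-number pairs had a correlation of deviations over 0.1. Depth limits the copies below 4 CPM most.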
